A study of Arabidopsis thaliana with 9 samples.

Results

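The spread between replicate libraries of a genotype was described gene by gene in 9 RNA-seq libraries of Arabidopsis thaliana seedlings, with 3 libraries in each of 3 genotypes. For each gene the mean of its own genotype was subtracted from log2(FPKM + 1), where FPKM is a level per kilobase of exon that is scaled to the size of the library. The mean over the 9 libraries had to reach 5 FPKM, which 14325 of 26973 genes did (53.1%). The genotypes were the line labelled OXmiR400, the line labelled OXrPPR1 and wild type, and every library came from seedlings given 100 µM cadmium for 6 h. The titles of all 9 libraries begin with Colombia, which the labels do not explain further. Libraries of untreated seedlings were not analysed here. The labels give no promoter, copy number or line history for the overexpressors, and they do not say whether replicates were grown as separate cultures. The spread described here may therefore be technical, biological or both, and in whole seedlings fewer cells of a type and less RNA per cell cannot be told apart.

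In plants, genes that respond to low oxygen, nutrients, sugar, touch or mitochondrial stress are each under shared transcription factors and are induced as sets. Low oxygen, for example, stabilises factors of the ERF family that switch on fermentation enzymes, and sulfur or iron shortage induces uptake transporters in roots. Genes for the proteasome, ribosomes and the photosynthetic apparatus are expressed at high levels in seedlings.

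The loci that the genotypes are named for were checked first. MIR400 (chr1:11785936-11786037, plus strand, TAIR10.1), the precursor of miR400, was listed at 953, 684 and 629 FPKM in OXmiR400, at 0.348, 0.241 and 0 FPKM in OXrPPR1 and at 0.194, 0.572 and 0 FPKM in wild type. AT1G06580 (chr1:2013996-2016273, minus strand), a pentatricopeptide repeat gene and known miR400 target, measured 2.56, 2.10 and 1.34 FPKM in OXmiR400, 25.5, 24.7 and 21.9 FPKM in OXrPPR1 and 2.40, 2.17 and 2.54 FPKM in wild type. Each locus was high in all 3 libraries of the line named for it and in no other library. Rebuilt library depth was 15.6 to 17.1 M units in OXmiR400, 19.3 to 21.1 M in OXrPPR1 and 12.7 to 17.1 M in wild type, where the files do not tell whether 1 unit is a read or a fragment.

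The pooled SD within genotypes, with 6 degrees of freedom, had a median of 0.17 on the log2 scale, which corresponds to a factor of 1.12. It ranged from 0.03 to 3.79, with 118 genes above 1 and 623 (4.35%) above 0.5. Counting of reads at the rebuilt depth would give a median SD of 0.06, and the observed SD was above the counting SD in 13931 of 14224 genes with an annotated exon length. From genes of 5 to 10 FPKM to genes above 200 FPKM the median SD was 0.19 and 0.20, while the counting SD was 0.08 and 0.02. The spread of well-expressed genes was thus larger than the number of reads sets. The most variable 1% of genes, 143 in number, held 31.7% of the whole within-genotype variance.

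**Figure D1:**
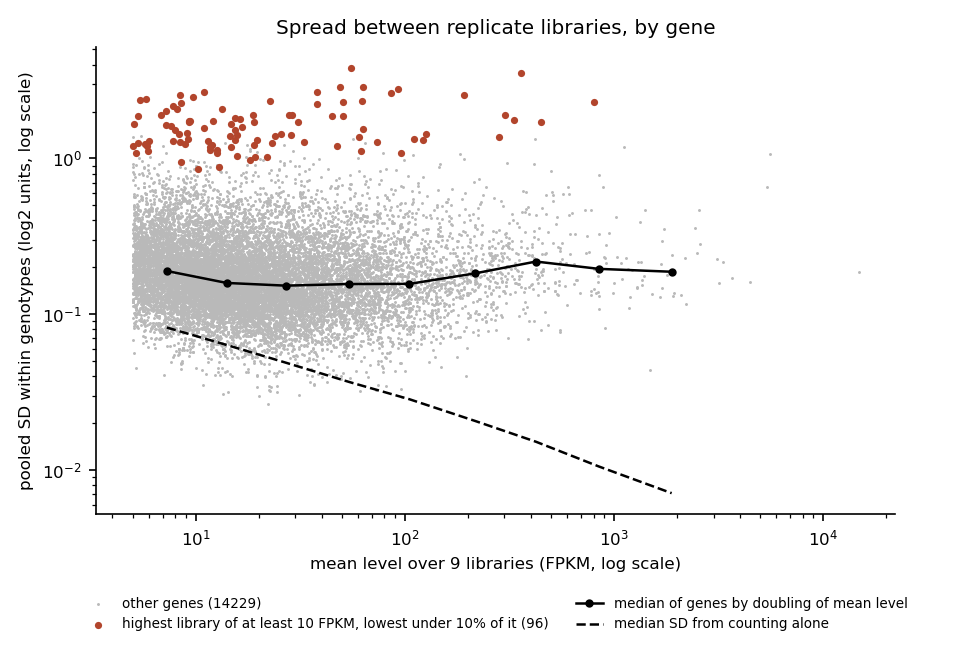
Pooled SD of log2(FPKM + 1) within genotypes (vertical, log scale) against the mean level over 9 libraries (horizontal, log scale), with 1 point per gene. The black line gives the median SD and the dashed line the median SD expected from counting alone; red points are the 96 genes whose lowest library of a genotype lay under 10% of a highest library of at least 10 FPKM.

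The median SD was 0.12 in OXmiR400, 0.17 in OXrPPR1 and 0.15 in wild type. An SD above 0.5 was found for 381 genes in OXmiR400, 859 in OXrPPR1 and 744 in wild type, so OXmiR400 libraries lay closest together. By library, the root mean square deviation was 0.21, 0.18 and 0.19 in OXmiR400 replicates 1 to 3, 0.24, 0.25 and 0.27 in OXrPPR1, and 0.25, 0.25 and 0.22 in wild type. OXrPPR1 replicate 3 deviated most. The number of genes more than 1 log2 unit from the genotype mean was 45 to 57 in OXmiR400 libraries, 84 to 123 in OXrPPR1 and 69 to 114 in wild type.

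To ask which families vary most, each gene's SD was divided by the median SD of its neighbours in mean level (100 genes on each side), which gives a spread ratio of 1 for a typical gene. Of all genes used, 1718 (12%) had a ratio above 2. Of 43 lists of genes, 38 had at least 5 members past the filter, and 13 of them had a median ratio above 2. The highest medians were 3.88 for 7 genes of root triterpene synthesis, 2.81 for 17 genes of sulfur deficiency, 2.79 for 8 jasmonate genes, 2.76 for 33 hypoxia-responsive genes, 2.74 for 68 plastid genome genes and 2.70 for 22 genes of the mitochondrial retrograde response. Iron deficiency (2.60, 17 genes), the mitochondrial genome (2.52, 14 genes), dark-inducible and sugar starvation genes (2.34, 18 genes), SAUR genes (2.31, 39 genes), expansins and xyloglucan-remodelling enzymes (2.14, 31 genes), class III peroxidases (2.10, 41 genes) and root markers (2.05, 11 genes) followed. The triterpene and hypoxia lists were drawn up after the genes that vary most had been seen, so their place in this order is a description and not independent evidence.

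**Figure D2:**
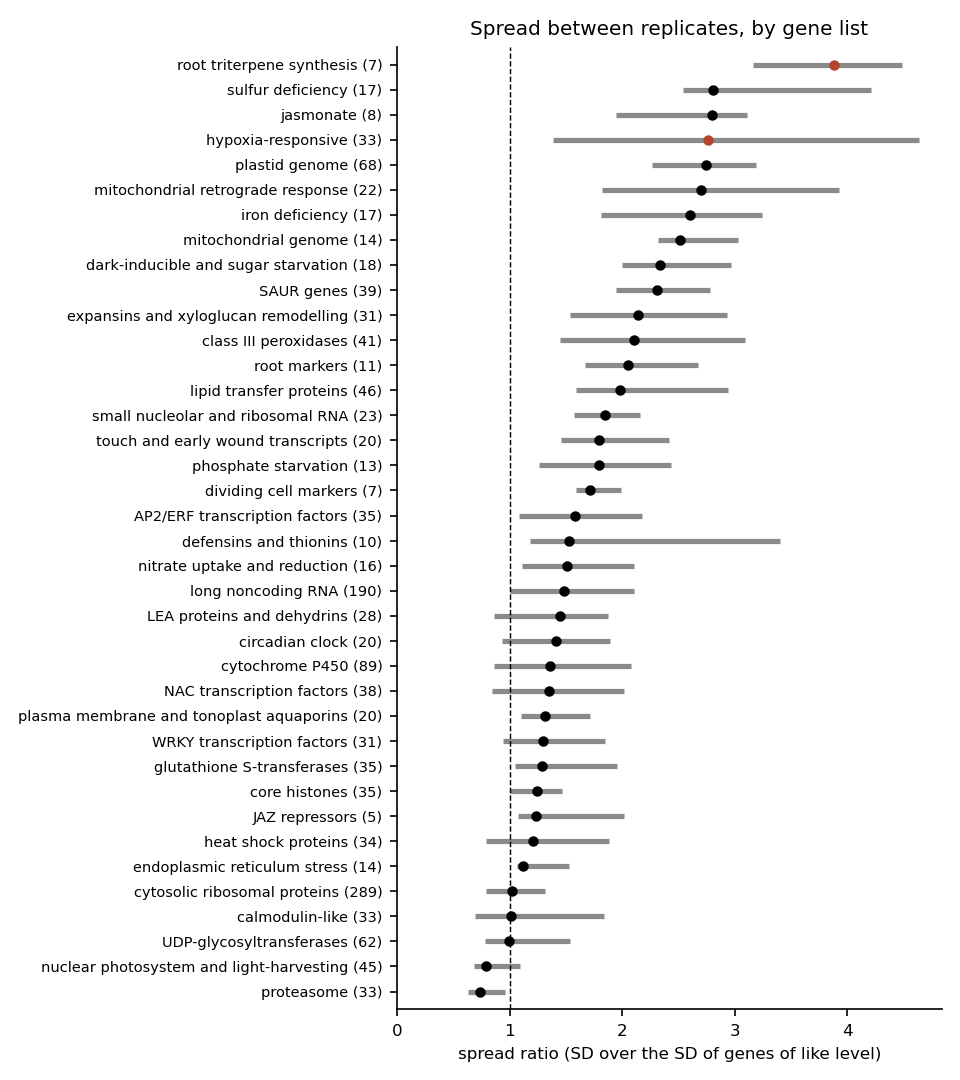
Spread ratio (horizontal, a gene's SD over the median SD of genes of like level) for 38 gene lists, with the number of members used in brackets. Points are list medians, bars the 25th to 75th percentile of members and red points the 2 lists added after values were seen; medians run from 3.88 for root triterpene synthesis to 0.73 for the proteasome, and the dashed line marks 1.

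Hypoxia-responsive genes varied together and were highest in OXrPPR1 replicate 3 and wild type replicate 1, the libraries at the high end of the first principal component. AT5G15120 (chr5:4898641-4900734, plus strand), annotated as a 2-aminoethanethiol dioxygenase, measured 5.65, 7.53 and 13.3 FPKM in OXmiR400, 2.43, 3.43 and 43.0 FPKM in OXrPPR1 and 38.0, 1.75 and 17.4 FPKM in wild type. HB1 (AT2G16060, chr2:6982531-6983777, minus strand), a hemoglobin that removes nitric oxide under low oxygen, measured 29.5, 33.7 and 45.0 FPKM in OXmiR400, 18.1, 25.9 and 179 FPKM in OXrPPR1 and 108, 13.9 and 57.2 FPKM in wild type. OXrPPR1 replicate 3 and wild type replicate 1 were high in both genes, and wild type replicate 2 and OXrPPR1 replicates 1 and 2 were low.

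ADH1 (AT1G77120), alcohol dehydrogenase of the fermentation pathway, had the same high libraries, at 4.21, 4.75 and 8.16 FPKM in OXmiR400, 2.86, 3.75 and 39.1 FPKM in OXrPPR1 and 22.6, 3.79 and 13.6 FPKM in wild type. LBD41 (AT3G02550), a LOB domain transcription factor gene, measured 12.8, 12.2 and 22.9 FPKM in OXmiR400, 8.49, 18.1 and 72.4 FPKM in OXrPPR1 and 42.3, 6.79 and 41.8 FPKM in wild type. Ranges of the 3 genotypes overlapped for all 4 genes. Over the 33 members used of 48 listed, the mean deviation was 0.02, -0.11 and 0.09 in OXmiR400, -0.41, -0.25 and 0.66 in OXrPPR1 and 0.34, -0.38 and 0.04 in wild type (log2 units, replicates 1 to 3). In OXrPPR1 replicate 3, 27 of the 33 lay above their genotype mean, and in wild type replicate 1, 26. The list mean carried 30.4% of the members' variance, where 33 members varying alone would give 3.03%. Without OXrPPR1 replicate 3 the list's median spread ratio fell from 2.76 to 2.32. Among alternatives that kept all libraries its lowest value was 1.92. The member with the least spread was AT5G44730, a haloacid dehalogenase-like hydrolase gene, at a pooled SD of 0.09.

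Genes of root triterpene synthesis ran the other way. Triterpenes are defence and signalling compounds that Arabidopsis roots make with clustered genes, an oxidosqualene cyclase beside P450 enzymes that modify its product. MRN1 (AT5G42600, chr5:17053453-17058245, plus strand), marneral synthase, measured 8.60, 8.17 and 5.26 FPKM in OXmiR400, 9.51, 4.57 and 0.579 FPKM in OXrPPR1 and 0.939, 6.61 and 4.02 FPKM in wild type. CYP705A5 (AT5G47990), a P450 of the thalianol cluster, measured 43.9, 49.6 and 47.1 FPKM in OXmiR400, 104, 72.9 and 27.3 FPKM in OXrPPR1 and 44.4, 111 and 82.6 FPKM in wild type. OXrPPR1 replicate 3 and wild type replicate 1 were the low libraries of their genotypes, and OXmiR400 libraries were close to each other. Over the 7 members used of 16 listed, the mean deviation was 0.05, 0.04 and -0.09 in OXmiR400, 0.71, 0.13 and -0.84 in OXrPPR1 and -0.67, 0.43 and 0.24 in wild type. Only 1 of the 7 lay above its genotype mean in OXrPPR1 replicate 3 and in wild type replicate 1. The mean deviations of the 2 lists had r = -0.94 over 9 libraries, where each genotype's 3 deviations sum to 0. Since both lists were drawn up after the genes that vary most had been seen, their opposite run describes genes chosen with it in view and is not independent evidence. The lowest r of 703 pairs of lists was -0.98, between triterpene genes and cytosolic ribosomal proteins, and that of hypoxia-responsive and endoplasmic reticulum stress genes was 0.94.

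**Figure D3:**
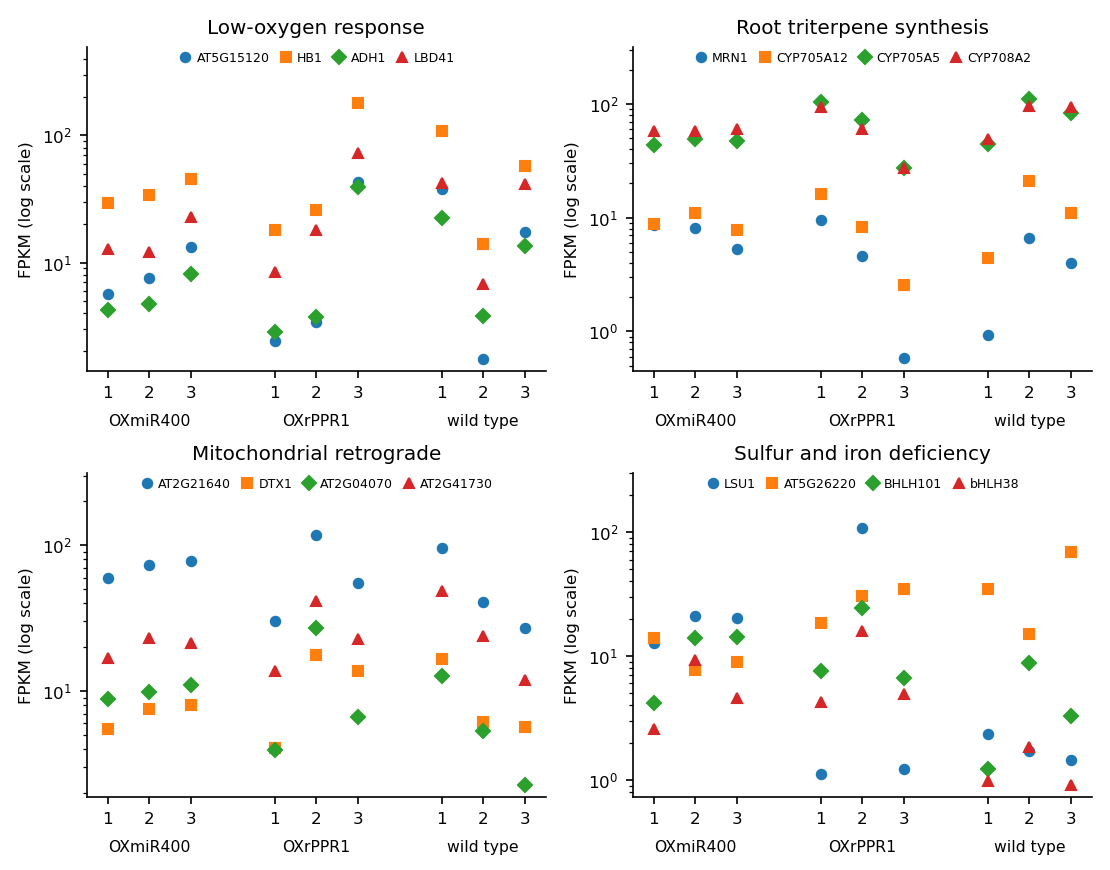
FPKM (log scale) in each of 9 libraries for 4 genes of the low-oxygen response, of root triterpene synthesis, of the mitochondrial retrograde response, and of sulfur and iron deficiency, with genotypes left to right and replicates numbered. The low-oxygen genes are highest in OXrPPR1 replicate 3, where the triterpene genes are lowest.

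The first principal component of the 9 columns of deviations took 31.5% of the variance, the next components 19.0% and 15.9%. On the first component the libraries lay at 4.77, -4.47 and -0.30 in OXmiR400, -15.0, -13.3 and 28.3 in OXrPPR1 and 19.8, -22.1 and 2.37 in wild type. OXrPPR1 replicate 3 and wild type replicate 1 stood at the high end and wild type replicate 2 at the low end, and across genes their deviations correlated at r = 0.35 (OXrPPR1 3 with wild type 1) and -0.40 (OXrPPR1 3 with wild type 2). Beside AT5G15120, HB1, ADH1 and LBD41, the genes at the high end included ICL (AT3G21720), isocitrate lyase of the glyoxylate cycle, at 7.39, 9.66 and 4.96 FPKM in OXmiR400, 9.95, 13 and 120 FPKM in OXrPPR1 and 25.5, 6.4 and 10.4 FPKM in wild type. At the low end, MLP328 (AT2G01520), a major latex protein-like gene, measured 152, 272 and 154 FPKM in OXmiR400, 764, 484 and 31.7 FPKM in OXrPPR1 and 88.05, 918 and 143 FPKM in wild type. RAB18 (AT5G66400), a dehydrin gene induced by abscisic acid, was at the same end, at 5.11, 7.75 and 4.77 FPKM in OXmiR400, 6.41, 21.6 and 0 FPKM in OXrPPR1 and 0.653, 15.6 and 2.79 FPKM in wild type.

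Class III peroxidases, secreted enzymes that act on the cell wall, varied with the hypoxia-responsive genes (r = 0.84 over 9 libraries, no gene shared). AT1G49570 measured 6.47, 5.49 and 13.4 FPKM in OXmiR400, 2.92, 4.90 and 51.7 FPKM in OXrPPR1 and 30.3, 2.63 and 53.9 FPKM in wild type. AT5G19890 measured 6.55, 3.52 and 8.32 FPKM in OXmiR400, 7.18, 5.54 and 45.5 FPKM in OXrPPR1 and 17.5, 3.98 and 41.4 FPKM in wild type. Here wild type replicate 3 was high along with OXrPPR1 replicate 3. Without OXrPPR1 replicate 3 the list's median spread ratio fell from 2.10 to 1.80. The mean deviation of the 41 peroxidases used was 0.05, -0.07 and 0.02 in OXmiR400, -0.16, -0.16 and 0.32 in OXrPPR1 and 0.12, -0.41 and 0.29 in wild type, and 6 of 41 lay above their genotype mean in wild type replicate 2.

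Markers of cell types were set beside these values. All 20 root markers, among them Casparian strip and root hair genes, had means that reached 1 FPKM, and 11 were used. Their summed level was 92.2, 96.6 and 84.9 FPKM in OXmiR400, 177.5, 121 and 217 FPKM in OXrPPR1 and 175, 137.5 and 203 FPKM in wild type. The lowest library of OXrPPR1 was replicate 2 and that of wild type replicate 2. RHS13 (AT4G02270), a root hair gene, measured 6.96, 5.04 and 4.68 FPKM in OXmiR400, 9.98, 7.5 and 25.1 FPKM in OXrPPR1 and 11.9, 8.97 and 25 FPKM in wild type. Of 16 seed storage and oil body genes 12 had a mean under 1 FPKM, and the 132.9 FPKM that they summed to in OXrPPR1 replicate 3, against 11.2 to 34.1 FPKM in the other 8 libraries, was mostly ICL. The 6 pollen markers summed to 0.820 to 2.28 FPKM. The part of root content in the spread of peroxidase, triterpene and hypoxia-responsive genes was not tested.

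**Figure D4:**
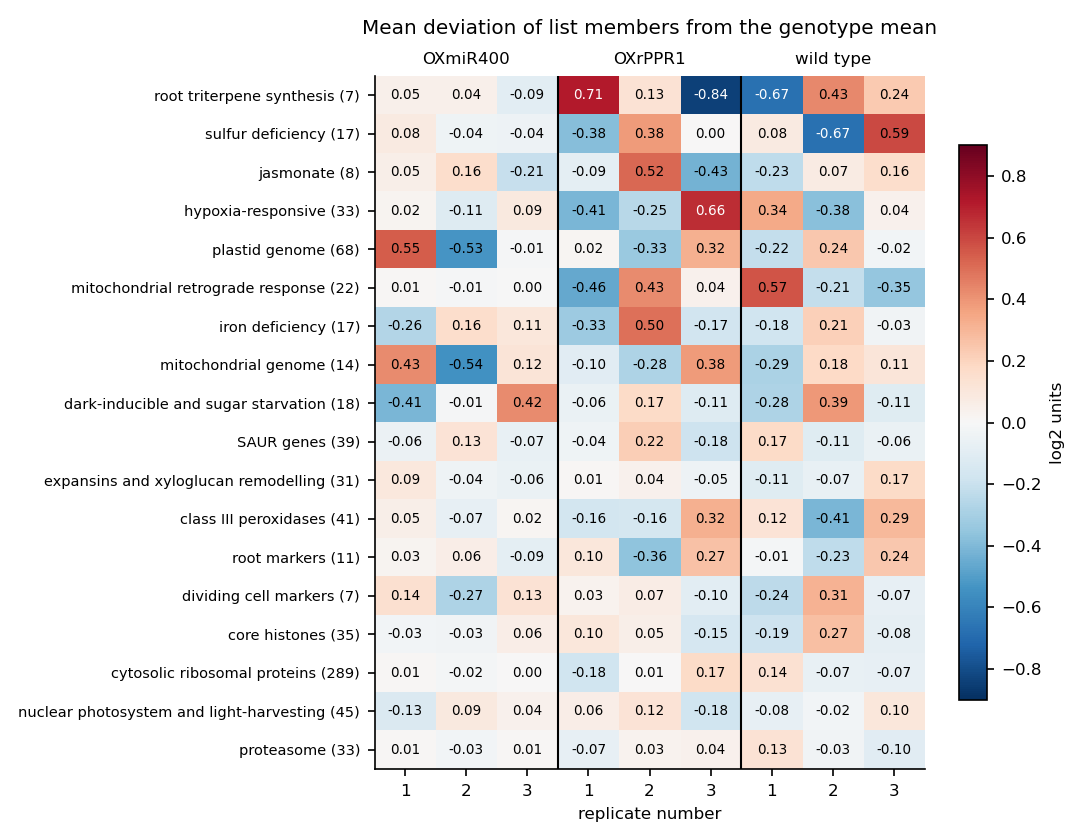
Mean deviation of list members from the genotype mean (log2 units, colour and number) in each of 9 libraries, for the 13 lists with a median spread ratio above 2 and for 5 further lists below them. OXrPPR1 replicate 3 holds the highest hypoxia-responsive value, 0.66, and the lowest triterpene value, -0.84, while OXmiR400 libraries stand apart mainly in organelle and sugar starvation genes.

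Genes of the mitochondrial retrograde response, which the nucleus induces when mitochondrial function falls, varied more in OXrPPR1 and wild type than in OXmiR400; this difference was not tested. Their median spread ratio within a genotype was 1.22 in OXmiR400, 2.66 in OXrPPR1 and 3.73 in wild type. Here the SDs were those of that genotype, and genes of like level were matched on the mean over all 9 libraries. Without wild type replicate 1 the ratio over all genotypes fell from 2.70 to 1.96. The mean deviation of the 22 members used was 0.01, -0.01 and 0.00 in OXmiR400, -0.46, 0.43 and 0.04 in OXrPPR1 and 0.57, -0.21 and -0.35 in wild type. AT2G21640, annotated as a marker of oxidative stress, measured 59.2, 72.6 and 77.7 FPKM in OXmiR400, 29.998, 117 and 54.6 FPKM in OXrPPR1 and 95.2, 40.6 and 27.0 FPKM in wild type. DTX1 (AT2G04040), a MATE efflux transporter gene, measured 5.50, 7.56 and 8.03 FPKM in OXmiR400, 4.05, 17.8 and 13.8 FPKM in OXrPPR1 and 16.6, 6.14 and 5.64 FPKM in wild type. OXrPPR1 replicate 2 and wild type replicate 1 were high in both, with 19 and 20 of 22 members above their genotype mean. The members' variance that was common to all, given by the variance of the list mean over the mean variance of members, was 56.8%, where 22 members varying alone would give 4.55%.

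Because the list varied as a block, promoters of its members were searched for the mitochondrial dysfunction motif, CTTG then any 5 bases and CA, a site of NAC factors of this response, on both strands of the 250 bases before the annotated start. The motif was chosen after values were seen. It was found in 8 of 22 members (36.4%), in 7.67% of 24199 promoters of all genes and in 6.88% of those of genes used. In other lists its share ran from 0% in sulfur deficiency to 22.9% in glutathione S-transferases, with 18.2% in hypoxia-responsive genes. As the motif was chosen as a site of this same response, its share in the retrograde list is a description and no evidence on the common spread. Promoters of the members with the highest SD that hold it are shown, from the TAIR10.1 genome (RefSeq) on the strand of the gene, with matches in capitals. AT2G21640 (chr2:9254128-9254377, plus strand) holds 2 overlapping matches and DTX1 (chr2:1336551-1336800, minus strand) holds 1.
AT2G21640: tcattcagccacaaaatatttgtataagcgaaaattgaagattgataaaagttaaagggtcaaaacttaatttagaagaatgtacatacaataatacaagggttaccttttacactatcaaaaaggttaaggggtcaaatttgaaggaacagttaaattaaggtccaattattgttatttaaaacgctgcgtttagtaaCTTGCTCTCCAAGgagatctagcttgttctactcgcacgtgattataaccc
DTX1: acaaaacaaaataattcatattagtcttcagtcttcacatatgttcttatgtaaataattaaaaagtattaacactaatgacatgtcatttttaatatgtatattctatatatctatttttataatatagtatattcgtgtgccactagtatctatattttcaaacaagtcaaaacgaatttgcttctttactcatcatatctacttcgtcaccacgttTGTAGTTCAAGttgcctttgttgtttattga
A match is a description of these letters and says nothing of binding. For comparison, the sulfur response motif GAGAC was found in 4 of 17 promoters of the sulfur deficiency list (23.5%) and in 25.7% of all promoters.

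Sulfur deficiency genes varied in wild type above all, with a median spread ratio of 2.11 in OXmiR400, 2.08 in OXrPPR1 and 4.13 in wild type. This difference was not tested. AT5G26220, a ChaC-like gene of glutathione breakdown, measured 14.0, 7.66 and 8.96 FPKM in OXmiR400, 18.3, 30.6 and 34.6 FPKM in OXrPPR1 and 34.5, 15.1 and 68.7 FPKM in wild type. SULTR1;1 (AT4G08620), a root sulfate uptake transporter, measured 1.6, 2.02 and 1.68 FPKM in OXmiR400, 4.91, 7.61 and 8.34 FPKM in OXrPPR1 and 13, 2.30 and 17.3 FPKM in wild type. Wild type replicate 2 was lowest and replicate 3 highest of that genotype, with 1 and 16 of 17 members above their genotype mean. Without wild type replicate 2 the list's median ratio over all genotypes fell to 1.81. LSU1 (AT3G49580), a low-sulfur response gene, did otherwise, at 12.8, 21.0 and 20.4 FPKM in OXmiR400, 1.11, 108 and 1.22 FPKM in OXrPPR1 and 2.34, 1.69 and 1.44 FPKM in wild type, so a single library, OXrPPR1 replicate 2, held its spread.

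Iron deficiency genes varied most in OXrPPR1, where their median spread ratio was 3.41, against 1.98 in OXmiR400 and 1.66 in wild type. This difference was not tested. Without OXrPPR1 replicate 2 the list's median ratio over all genotypes fell from 2.60 to 1.90. BHLH101 (AT5G04150), a transcription factor of the iron response, measured 4.21, 14.0 and 14.2 FPKM in OXmiR400, 7.59, 24.2 and 6.60 FPKM in OXrPPR1 and 1.22, 8.83 and 3.26 FPKM in wild type. Its relative bHLH38 (AT3G56970) measured 2.57, 9.35 and 4.59 FPKM in OXmiR400, 4.22, 16.0 and 4.90 FPKM in OXrPPR1 and 0.985, 1.86 and 0.916 FPKM in wild type. Replicate 2 was the highest library of OXrPPR1 and of wild type in both genes. The mean deviation of the 17 members used was -0.26, 0.16 and 0.11 in OXmiR400, -0.33, 0.50 and -0.17 in OXrPPR1 and -0.18, 0.21 and -0.03 in wild type, highest in the library numbered 2 of each genotype. Jasmonate genes also peaked in OXrPPR1 replicate 2, where all 8 used lay above their genotype mean, by 0.52 on average. LOX2 (AT3G45140), a lipoxygenase of jasmonate synthesis, measured 4.17, 5.71 and 2.55 FPKM in OXmiR400, 4.14, 16.7 and 8.67 FPKM in OXrPPR1 and 5.45, 5.17 and 12.3 FPKM in wild type.

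Transcripts of the plastid and mitochondrial genomes varied as blocks and together, with r = 0.95 between their list means over 9 libraries, the highest of the 703 pairs. The common share of the members' variance was 71.5% for 68 plastid genes, where 1.47% would hold if they varied alone, and 57.8% for 14 mitochondrial genes. Plastid genes deviated by 0.55, -0.53 and -0.01 on average in OXmiR400, 0.02, -0.33 and 0.32 in OXrPPR1 and -0.22, 0.24 and -0.02 in wild type. All 68 lay above their genotype mean in OXmiR400 replicate 1 and 1 of 68 in OXmiR400 replicate 2. ATCG01170 measured 63.6, 21.1 and 35.6 FPKM in OXmiR400, 19.3, 15.3 and 51.8 FPKM in OXrPPR1 and 93.9, 100.6 and 98 FPKM in wild type. The share of units from plastid genes was 0.274%, 0.111% and 0.193% of the units in OXmiR400, 0.121%, 0.0959% and 0.135% in OXrPPR1 and 0.300%, 0.460% and 0.370% in wild type. The nuclear 18S ribosomal RNA gene AT3G41768 measured 814, 273 and 577 FPKM in OXmiR400, 299, 196 and 293 FPKM in OXrPPR1 and 735, 1316 and 667 FPKM in wild type. Its lowest library was replicate 2 in OXmiR400 and OXrPPR1, and its highest replicate 2 in wild type; its relation to the organelle genes was not tested.

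Dark-inducible and sugar starvation genes varied most in OXmiR400, with a median spread ratio of 4.21, against 1.47 in OXrPPR1 and 2.37 in wild type. This difference was not tested. Without wild type replicate 2 the list's median ratio over all genotypes fell from 2.34 to 1.97. ASN1 (AT3G47340), asparagine synthetase, which is induced when sugar runs low, measured 156, 202 and 300 FPKM in OXmiR400, 322, 273 and 177 FPKM in OXrPPR1 and 97.8, 400 and 113 FPKM in wild type. BCAT-2 (AT1G10070), a branched-chain aminotransferase, measured 40.0, 40.3 and 69.3 FPKM in OXmiR400, 80.4, 70.4 and 65.7 FPKM in OXrPPR1 and 47.7, 120 and 50.9 FPKM in wild type. None of the 18 members lay above the genotype mean in OXmiR400 replicate 1 and all 18 did in OXmiR400 replicate 3. Core histones, made in dividing cells, had little excess spread (ratio 1.24) yet a common share of 49.5%, with mean deviations of -0.03, -0.03 and 0.06 in OXmiR400, 0.10, 0.05 and -0.15 in OXrPPR1 and -0.19, 0.27 and -0.08 in wild type. The 7 dividing cell markers deviated by 0.14, -0.27 and 0.13 in OXmiR400, 0.03, 0.07 and -0.10 in OXrPPR1 and -0.24, 0.31 and -0.07 in wild type, so the lists had like values in OXrPPR1 and wild type and parted in OXmiR400.

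In other variable families less of the variance was common to the members. Lipid transfer proteins had a median ratio of 1.98 but a common share of 1.49%, where 46 members varying alone would give 2.17%. That share includes DIR1 (AT5G48485), which had the list's highest spread ratio, 18.7. DIR1 was listed at 0 in OXrPPR1 replicate 1 and wild type replicate 3, and AT5G48480 covers 100% of its exons. The share without DIR1 was not computed, so the low value is no result about the other members. Some members went opposite ways, as shown by EARLI1 (AT4G12480) at 330, 260 and 439 FPKM in OXmiR400, 126, 299 and 937 FPKM in OXrPPR1 and 645, 77.9 and 678 FPKM in wild type, and by AT3G53980 at 30.8, 31.6 and 34.5 FPKM in OXmiR400, 50.9, 47.5 and 9.78 FPKM in OXrPPR1 and 4.18, 33.4 and 21.7 FPKM in wild type. Expansins and xyloglucan-remodelling enzymes, which loosen the cell wall, had a common share of 5.88%, where 3.23% would hold if they varied alone. SAUR genes, early auxin-responsive genes, had 12.7%, against 2.56% if they varied alone, with 30 of 39 above their genotype mean in wild type replicate 1 and 10 of 39 in OXrPPR1 replicate 3. AT1G29450, a SAUR-like gene, measured 11.6, 18.6 and 14.0 FPKM in OXmiR400, 1.2, 22.8 and 12.7 FPKM in OXrPPR1 and 14.9, 11.1 and 7.47 FPKM in wild type.

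The lowest median spread ratios over all genotypes were those of the proteasome, with 0.73 over 33 of 35 members, and of nuclear photosystem and light-harvesting genes, with 0.79 over 45 of 47. Taken within a genotype, the photosystem list had 1.15 in OXmiR400, 0.914 in OXrPPR1 and 0.828 in wild type, and other lists lay below it in OXmiR400 and OXrPPR1. PAC1 (AT3G22110), a proteasome core subunit, measured 55.3, 55.8 and 56.2 FPKM in OXmiR400, 59.3, 60.5 and 57.7 FPKM in OXrPPR1 and 68.7, 69.5 and 65.7 FPKM in wild type, a pooled SD of 0.03. The 289 cytosolic ribosomal protein genes had a median ratio close to that of all genes. Among light-harvesting genes LHB1B2 (AT2G34420) was an exception, at 5850, 847 and 8454 FPKM in OXmiR400, 6652, 8070 and 4874 FPKM in OXrPPR1 and 4235, 4555 and 6693 FPKM in wild type. Its neighbour and relative LHB1B1 (AT2G34430) was highest where LHB1B2 was lowest, at 4100 FPKM in OXmiR400 replicate 2. Whether reads are shared between these relatives was not tested.

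The very largest spreads came from genes whose level in some libraries was a small part of that in others of the same genotype. A gene was counted here when, within a genotype, its highest library held at least 10 FPKM and its lowest under 10% of that, a rule set after values were seen. There were 96 such genes of 14325, with 38 in OXmiR400, 53 in OXrPPR1 and 53 in wild type. The low library was at or near 0 for some of the 96 and well above it for others. HIS1-3 (AT2G18050), a histone H1 gene, measured 26.1 FPKM in wild type replicate 1 and 304 FPKM in replicate 2. AT5G15120, ADH1, ICL, MLP328, RAB18, AT1G49570, AT5G19890, LSU1 and AT1G29450, described above, were among the 96. Genes that every cell uses were too, so values are given for each library. RPL27AB (AT1G23290, chr1:8262925-8263739, plus strand), a cytosolic ribosomal protein gene, was listed at 0, 194 and 208 FPKM in OXmiR400, 175, 222 and 242 FPKM in OXrPPR1 and 254, 210 and 222 FPKM in wild type. AT1G23300 (chr1:8262939-8266048, minus strand), a transporter gene on the other strand that covers 98.3% of the exons of RPL27AB, was listed at 73.3, 0 and 0 FPKM in OXmiR400 and at 0 in the other 6 libraries. The gene at 0 in OXmiR400 replicate 1 thus had its partner listed there alone. In units per M of library depth the pair summed to 179, 158 and 170 in OXmiR400, 143, 181 and 197 in OXrPPR1 and 207, 171 and 181 in wild type.

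Of the 96 genes, 26 (27.1%) had at least 50% of their exons inside another gene, against 303 of all 14325 genes used (2.12%), and 25 of the 26 partners lay on the opposite strand. The SD of the units of these 26 genes had a median of 1.93, and that of the pair's sum 0.20. A sum is steady in any case where the partner holds most of the pair's units. For the 18 of the 26 that held over 50% of the pair's units in their highest library, the medians were 1.85 and 0.25. Both members of a pair could be among the 26, which made 24 distinct pairs. Gene and partner deviated in opposite directions with r below -0.5 over 9 libraries in 14 of the 24 (58.3%), against 55 of 230 such pairs over all genes used (23.9%), and the 24 are part of the 230. A near-identical transcript elsewhere, at 95% identity or more over at least 50% of its length, was found for 9 of the 96 (9.38%) and for 206 of all genes used (1.44%). SAE1B (AT5G50680), a subunit of the SUMO activating enzyme, was listed at 16.0, 0 and 0 FPKM in OXmiR400, 17.2, 0 and 0 FPKM in OXrPPR1 and 0.0965, 0 and 18.7 FPKM in wild type. Its copy AT5G50580 measured 17.0, 22.0 and 27.0 FPKM in OXmiR400, 18.5, 26.4 and 20.1 FPKM in OXrPPR1 and 28.4, 22.9 and 19.7 FPKM in wild type. The SD was 2.41 for AT5G50680 and 0.35 for the sum of the copies. The summed SD was under 0.6 in 6 of the 9 and above 1 in 3, namely TPS-CIN (AT3G25830), a terpene synthase gene, at 1.504, AT1G24822 at 1.82 and MIR2936 (AT4G04125) at 1.27.

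**Figure D5:**
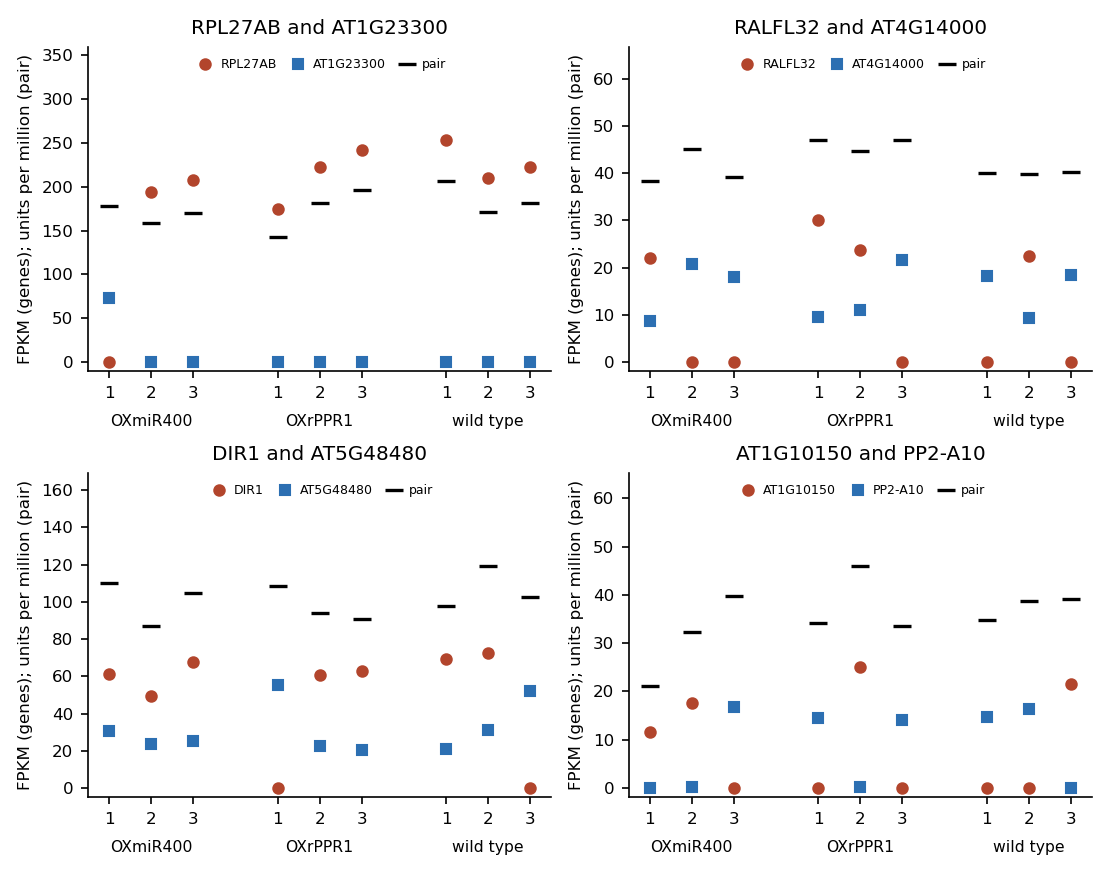
Values in each of 9 libraries for 4 pairs of genes that overlap on opposite strands: red circles and blue squares are the FPKM of each gene, black bars the pair's sum in units per M. In RPL27AB and AT1G23300 and in AT1G10150 and PP2-A10, the libraries where a gene is listed at or near 0 are those where its partner is high, while the sum varies less.

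The remaining 64 of the 96 met neither the cut for overlap nor that for a near-identical transcript. These 64 were not free of overlaps or copies. AT1G23300, where the overlap with RPL27AB covers 32.9% of the exons, was among them, as was AT3G25820, the copy of TPS-CIN (AT3G25830). The 64 also included the gene with the largest SD of all, ATCTH (AT2G25900, chr2:11041331-11043256, plus strand), a CCCH zinc finger gene. ATCTH measured 0.0479, 83.7 and 107 FPKM in OXmiR400, 88.8, 0.0803 and 0.0212 FPKM in OXrPPR1 and 0.0215, 128 and 91.5 FPKM in wild type. AT5G18380 (chr5:6089712-6090804, minus strand), another ribosomal protein gene, measured 490, 462 and 2.96 FPKM in OXmiR400, 392, 0.741 and 520 FPKM in OXrPPR1 and 485, 466 and 423 FPKM in wild type. RAV2 (AT1G68840), a transcription factor gene, measured 66.6, 1.55 and 141 FPKM in OXmiR400, 105, 109 and 99.1 FPKM in OXrPPR1 and 1.34, 135 and 117 FPKM in wild type. The low libraries overlapped in part: OXrPPR1 replicate 2 was low in ATCTH and AT5G18380, and wild type replicate 1 in ATCTH and RAV2. The part of read assignment by the counting program in these values was not tested, and its treatment of strand is not given in the sources used here.

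Against this spread, few genes passed an adjusted cut in a test over genotypes, which is not a count of the genes that differ. Of the sum of squares over all genes used, 61.2% lay within genotypes, where 75% would if genotype had no effect. In limma's moderated F test over the 3 genotypes, 13 of 14325 genes (0.0908%) passed an adjusted p of 0.05 with Benjamini-Hochberg adjustment, and 1996 had an unadjusted p under 0.05 where 716 would by chance. MIR400 and AT1G06580 were among the 13 (adjusted p = 1.01e-08 and 2.85e-05 in limma). So was an identifier without annotation that has nearly the values of MIR400 (adjusted p = 6.98e-09 in limma). SULTR1;2 (AT1G78000), a sulfate transporter (adjusted p = 0.0356 in limma), and GSTU1 (AT2G29490), a glutathione transferase (adjusted p = 0.0323 in limma), were also among them. None of the 96 genes set apart above passed. They were picked for a large spread within a genotype, which this test divides by, so that outcome was nearly fixed in advance. No hypoxia-responsive, triterpene, retrograde, plastid or mitochondrial genome gene passed, while 62 of 68 plastid genes had an unadjusted p under 0.05. With 0.0908% of all genes called, the absence of calls in lists of this size is no result about them. The hypoxia and triterpene lists were also drawn up after the most variable genes had been seen. The count was 56 without OXrPPR1 replicate 3, 37 without wild type replicate 2, 25 without OXrPPR1 replicate 2 and 8 without either OXmiR400 replicate 2 or OXmiR400 replicate 3.

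Deviations were also tested against library depth and replicate number. For the slope on depth within genotypes, 0 of 14325 genes passed in limma (0% called), and 1470 had an unadjusted p under 0.05 where 716 would by chance, or 808 without wild type replicate 1 and 980 without wild type replicate 2. The slope was above 0 in 1 of 22 retrograde genes, 2 of 17 sulfur deficiency genes, 7 of 33 hypoxia-responsive genes, 6 of 7 triterpene genes and 64 of 68 plastid genes, and in 6727 of all 14325 genes. The part of depth in the spread of these lists was not tested further. For replicate number, 0 genes passed in limma (0% called) and 677 had an unadjusted p under 0.05. Among the lists, the largest shares with an unadjusted p under 0.05 were 10 of 17 iron deficiency and 6 of 20 touch genes. Next came 6 of 23 small nucleolar and ribosomal RNA genes and 7 of 34 heat shock genes, against 677 of all 14325 genes. Members of a list can vary together, so such counts are not independent calls.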

How the data were processed

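Values are FPKM as deposited by the authors in 3 tables of identical content, of which 1 was read, with 0 columns unused. No header names the unit. It was inferred because values times exon length sum to about the same total in each library. Per the submitters' processing notes the builds are GRCm38 and mm10, which are mouse builds, while identifiers and positions are those of Arabidopsis TAIR10.1 (26513 of 26973 genes matched). Per the labels' protocols, TRIzol served for RNA isolation and a SMARTer mRNA kit for the libraries. Aligner, counting program and strand setting: not given in the sources used here. Low values fell on multiples of 0.25 of a unit (tolerance 0.05 of a step) in 99.6% to 99.9% of cases and on whole units in 48.7% to 52.4%, so no count model was used. Depth was rebuilt from these steps, and the counting SD assumes Poisson counting at that depth.

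Genes whose mean reached 5 FPKM were used, on log2(FPKM + 1), which understates the spread of low genes. Tests were made with limma 3.58.1 in R 4.3.3, using eBayes with trend and robust options, over all 9 libraries with genotype in the model, and were tested on simulated data. Near-identical transcripts were found with BLAST+ 2.17.0, and other steps used Python 3.11.15. Named genes are the loci of the labels, the 30 genes of highest SD, the 15 at each end of the first 2 components, the 10 of lowest SD, and of each list the 4 members of highest SD and the lowest. Partners and copies of these genes, and genes named from the test over genotypes, were chosen after their values were seen. The members, lists and named genes were chosen with earlier results of these data known. Cell type marker lists were root, dividing cell, seed, pollen and photosystem genes. Alternatives were a pseudocount of 0.1, quantile normalization, median centring, filters of 1 and 20 FPKM, no filter, no variance trend, organelle genes left out, the replicate number as a block, and each library left out. Leaving out overlapping or copied genes, or the 96 genes with a library under 10% of another of its genotype, was chosen after seeing the data.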

Additional observations from a re-analysis of the deposited data

How the results depend on the processing

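The median SD of 0.17 stayed between 0.16 and 0.19 under all alternatives run. The share of the first component, 31.5%, became 29.6% with a pseudocount of 0.1. In alternatives chosen after seeing the data, it was 33.5% without the 96 genes that fell under 10% of their highest library. Without overlapping or copied genes it was 33.9%. It lay between 27.9% and 37.2% with each library left out, lowest without OXrPPR1 replicate 3. The number of lists with a median spread ratio above 2, 13 in the main setting, lay between 10 and 15. The 96 genes became 44 with a highest library of at least 20 FPKM and a lowest under 5% of it, and 82 to 93 with each library left out. For the test over genotypes, the 13 genes became 23 with median centring, 57 with a mean of at least 1 FPKM, 27 with no filter and 8 to 56 with each library left out. For replicate number, 0 became 1 with a mean of at least 1 FPKM and lay between 0 and 1 with each library left out, and for depth it was 0 throughout. With the replicate number as a block, 17 genes passed over genotypes and the median SD was 0.16. The numbers pair nothing by the labels. Deviations of same-numbered libraries correlated across genes at -0.28 to 0.13 and those of other libraries of different genotypes at -0.40 to 0.35. With 3 libraries a genotype, an SD of 1 gene in 1 genotype rests on 2 degrees of freedom. Of 603 values of list ratios under alternatives, 582 moved by less than the spread over the 3 genotypes. That spread is wide for some lists, such as the plastid genome at 4.99 in OXmiR400, 2.19 in OXrPPR1 and 1.90 in wild type. The count is therefore a loose measure of stability.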

Other observations

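Circadian clock genes had a median spread ratio of 1.42 over 20 members. PRR9 (AT2G46790), a pseudo-response regulator, measured 12.5, 7.03 and 4.36 FPKM in OXmiR400, 8.85, 2.71 and 4.20 FPKM in OXrPPR1 and 8.28, 5.84 and 3.85 FPKM in wild type. CDF1 (AT5G62430), a cycling DOF factor, measured 26.9, 14.1 and 8.80 FPKM in OXmiR400, 10.6, 4.87 and 4.93 FPKM in OXrPPR1 and 8.60, 7.19 and 5.57 FPKM in wild type. Replicate 1 was the highest library of each genotype in both genes. Over the 20 members the mean deviation was 0.20, -0.05 and -0.15 in OXmiR400, 0.16, -0.08 and -0.08 in OXrPPR1 and -0.02, 0.09 and -0.07 in wild type, where 10 of 20 lay above their genotype mean in replicate 1 and 17 of 20 in replicate 2. The evening element AAAATATCT, a site of clock factors, was found in 6 of 20 promoters of the list (30%) and in 2.46% of all promoters, searched on both strands of 250 bases. In other lists its share reached at most 14.3%, in LEA proteins and dehydrins. As the element is a known site of clock regulation, its share in the clock list is a description and no evidence on the spread.

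Phosphate starvation genes had a median ratio of 1.79 over 13 members. IPS1 (AT3G09922), a noncoding RNA induced when phosphate is low, measured 11.5, 19.0 and 1.47 FPKM in OXmiR400, 16.3, 23.0 and 32.5 FPKM in OXrPPR1 and 13.8, 34.6 and 21.2 FPKM in wild type. PS2 (AT1G73010), a pyrophosphatase gene, measured 2.60, 3.33 and 0.514 FPKM in OXmiR400, 4.47, 10.07 and 7.61 FPKM in OXrPPR1 and 10.04, 18.3 and 8.26 FPKM in wild type. OXmiR400 replicate 3 was the lowest library of all in both genes.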
